A study of Mus musculus with 9 samples.

Results

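The Ikaros family is a set of 5 zinc finger transcription factors of lymphocytes, encoded in the mouse by Ikzf1 (Ikaros), Ikzf2 (Helios), Ikzf3 (Aiolos), Ikzf4 (Eos) and Ikzf5 (Pegasus). The rows with these 5 symbols were taken from a table of 34092 genes, and all 5 were among the 14424 genes that passed the filter on low counts. RNA was sequenced from sorted ex vivo regulatory T cells without stimulation, in mice that lack the conserved noncoding element CNS2 of the Foxp3 gene (labelled Foxp3deltaCNS2-gfp, here CNS2KO) and in mice with an intact element (labelled Foxp3gfp, here WT). Both genotypes carry a green fluorescent protein at Foxp3. The labels list 3 CNS2KO and 6 WT samples, and 2 CNS2KO and 5 WT libraries could be compared, because the 2 columns numbered 407 share a name and could belong to either genotype. The labels give neither age nor sex, and do not say whether each library came from a separate animal, so the spread that p-values rest on is that of the libraries and may be technical. The genes were chosen by symbol, with the difference between CNS2KO and WT libraries in these counts already known, and that difference is therefore described without a test.

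Family members bind DNA through a block of zinc fingers near the start of the protein and bind each other through a further pair at the end. They recruit chromatin complexes such as NuRD, and act on lymphocyte development and on cytokine genes such as Il2. In regulatory T cells, Helios is known as a factor of stable, mostly thymus-derived cells and Eos as a corepressor that works with Foxp3. CNS2 is known for keeping Foxp3 expressed through cell division.

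The family's likeness was read from the coding sequences of the GENCODE M21 transcripts (GRCm38) that match RefSeq entries. Members lie on mouse chromosome 11 (Ikzf1 and Ikzf3), 1 (Ikzf2), 10 (Ikzf4) and 7 (Ikzf5). A search for the cysteine and histidine pattern of a zinc finger found 6 fingers in Ikzf1 to Ikzf4 and 5 in Ikzf5. The second finger is shown because it encodes the same 21 residues in Ikzf1 to Ikzf4 although the bases differ, with the codons of the 4 zinc-binding residues in capitals:
Ikzf1 finger 2: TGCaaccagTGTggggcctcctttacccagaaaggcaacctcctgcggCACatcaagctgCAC
Ikzf2 finger 2: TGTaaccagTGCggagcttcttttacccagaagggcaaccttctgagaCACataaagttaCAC
Ikzf3 finger 2: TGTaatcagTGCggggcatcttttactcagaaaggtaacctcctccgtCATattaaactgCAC
Ikzf4 finger 2: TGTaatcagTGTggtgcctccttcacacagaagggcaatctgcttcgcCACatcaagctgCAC
Ikzf5 finger 2: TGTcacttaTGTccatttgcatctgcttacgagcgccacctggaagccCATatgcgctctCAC

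In the second finger, the 6 pairs among Ikzf1 to Ikzf4 shared 76.2 to 84.1% of bases and 21 of 21 encoded residues. Ikzf5 shared 41.3 to 47.6% of bases with the others there, and 5 of 21 residues, which include the zinc-binding residues that the search requires. Fingers were paired by their order in the protein and not by alignment, so another finger may match that of Ikzf5 better. The longest run of bases shared exactly by a pair of members' transcripts was 32, between Ikzf2 and Ikzf4, and 0 windows of 50 bases were shared by any pair. Exons of Ikzf5 overlap those of Pstk on the opposite strand, which had 367 and 451 reads in CNS2KO libraries and 215 to 488 in WT libraries. The sources used here do not say whether strand was used in counting, so reads at this overlap could not be separated.

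Reads on genes numbered 21836578 and 21427618 in CNS2KO 399 and CNS2KO 408 and 16557424 to 19154642 in the WT libraries. The family had 29298 and 40639 reads in CNS2KO 399 and CNS2KO 408, against 29118 to 37329 in the WT libraries. The lowest count of a member was 696 reads, for Ikzf5 in WT 402. Regulatory T cell markers were present in every library, with a summed level of 4300 and 4387 CPM (counts of a gene relative to all reads on genes of its library, scaled by the trimmed mean of M-values, TMM) in CNS2KO libraries and 3997 to 4701 CPM in WT libraries. In bulk RNA, fewer cells of a type and less RNA per cell cannot be told apart.

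Helios and Ikaros were the most abundant family transcripts in these cells. On a scale of CPM per kilobase of exon, Ikzf2 stood at 103 ± 28.0 in CNS2KO (SD, n = 2) and 103 ± 5.04 in WT (SD, n = 5). Ikzf1 stood at 75.3 ± 17.6 CPM per kb in CNS2KO and 95.3 ± 10.1 in WT. Among 10719 tested genes with a length, these WT levels ranked 630 for Ikzf2 and 688 for Ikzf1, counted from the highest.

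Ikzf3 followed with 31.5 ± 8.18 CPM per kb in CNS2KO and 51.3 ± 5.07 in WT, at rank 1338. Ikzf4 stood at 29.4 ± 0.147 CPM per kb in CNS2KO and 34.8 ± 5.78 in WT, at rank 1937. Ikzf5 was lowest, with 12.1 ± 3.60 CPM per kb in CNS2KO and 13.3 ± 2.23 in WT, at rank 3990. Across all 7 libraries, Ikzf5 stayed between 9.54 and 15.1 CPM per kb, below the lowest library of every other member.

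**Figure D1:**
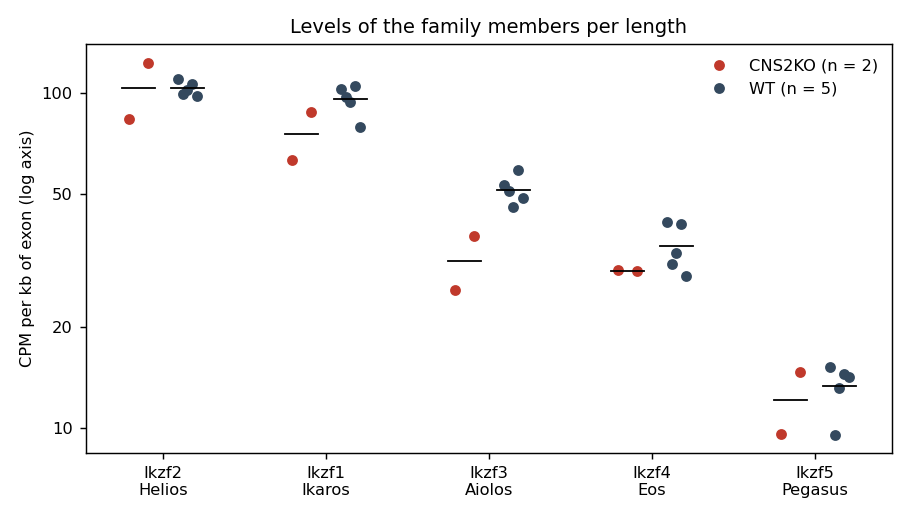
Level of each family member in CPM per kb of exon, on a log axis, with members ordered by their mean. Each point is a library, CNS2KO left and WT right of each pair, and bars are group means. Ikzf2 and Ikzf1 lie highest, Ikzf5 lies lowest, and the CNS2KO points of Ikzf3 reach down to those of Ikzf4.

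The order of levels within a library was tested for the 10 pairs of members by a two-sided exact permutation test of the paired log2 differences per kb, adjusted over the pairs. All 10 pairs passed, as they did without CNS2KO 399, and 9 passed when CNS2KO 408 or any single WT library was left out. The smallest p that 7 libraries allow is 0.0156, and 9 pairs reached it (adjusted p = 0.0174). Ikzf1 stood at 0.864 of the level of Ikzf2 on average (mean log2 difference -0.21, SD 0.187) and was lower in 7 of 7 libraries. Ikzf1 exceeded Ikzf3 2.0-fold in 7 of 7 libraries, and Ikzf4 exceeded Ikzf5 2.58-fold in 7 of 7.

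Ikzf3 and Ikzf4 were the pair whose order was not the same in every library. Ikzf3 was higher in 6 of 7 libraries, with a mean log2 difference of 0.43 (SD 0.323, exact p = 0.0312, adjusted p = 0.0312). The exception was CNS2KO 399, with 25.7 CPM per kb of Ikzf3 and 29.5 of Ikzf4. The order of 2 of the pairs depended on the length used. Per coding length, Ikzf3 and Ikzf4 were no longer told apart (mean log2 difference 0.14, exact permutation adjusted p = 0.25). Per all annotated exons, a length added after seeing the data, Ikzf3 lay below Ikzf4 in 7 of 7 libraries (log2 difference -0.61), and Ikzf2 exceeded Ikzf1 in 3 of 7 (exact permutation adjusted p = 0.516).

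The members also differed in how much they varied between WT libraries. Ikzf2 was the steadiest of the 5, with an SD of 0.07 in log2 CPM and a range of 0.17 from the lowest to the highest WT library. Of the 500 tested genes nearest to it in WT level, 1.8% had a smaller SD, and their median SD was 0.188. Ikzf1 had an SD of 0.16 and Ikzf3 of 0.14, against medians of 0.189 and 0.214 for genes of like level. Ikzf4 (0.239) and Ikzf5 (0.268) were close to the medians of their own like-level genes, at 0.214 and 0.274.

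**Figure D2:**
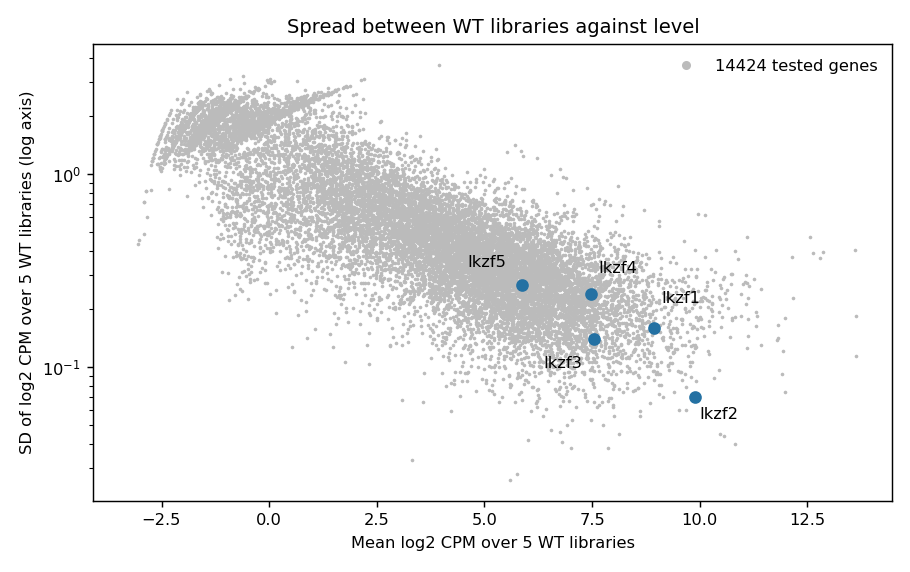
SD of log2 CPM over the 5 WT libraries (log axis) against mean log2 CPM, with grey points for the 14424 tested genes and blue points for the family. Ikzf2 lies at the lower edge of the cloud at its level, with an SD of 0.07, while Ikzf4 and Ikzf5 lie within it.

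The study's comparison was between CNS2KO and WT cells. Across all genes, edgeR's quasi-likelihood test at an FDR of 0.05 called 0 of 14424 (0%), with 361 at an unadjusted p under 0.05. DESeq2 and limma-voom also called 0, with 496 and 614 at an unadjusted p under 0.05. The fitted fold change was below 0 in 52.6% of all genes and in 4 of the 5 members.

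Aiolos was the member whose transcript was lower in both CNS2KO libraries than in every WT library. Ikzf3 had 94.0 and 136 CPM in CNS2KO 399 and CNS2KO 408, against 194, 186, 166, 215 and 177 CPM in WT 398, 402, 405, 1032 and 1037. Neither CNS2KO library reached the lowest WT value, and CNS2KO 399 lay lowest. Such a separation was seen in 432 tested genes (3.0%) and, among the members, in Ikzf3 alone. The opposite separation, both CNS2KO libraries above every WT library, was seen in 3.76% of tested genes and in 0 of the 5 members. Ikzf3 averaged 115 ± 29.9 CPM in CNS2KO (SD, n = 2) and 188 ± 18.5 CPM in WT (SD, n = 5), a log2 fold change of -0.71 (SE 0.200), or 0.613-fold. Of all tested genes, which include genes with few reads, 12.2% had a more negative fold change. This share was not taken among genes of like level. Without CNS2KO 399 the log2 fold change was -0.46, and without CNS2KO 408 it was -1.01. Aiolos is known for its part in B cell maturation and, in helper T cells, for silencing Il2.

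Ikaros, the founding member and a regulator needed for lymphoid development, had 325 and 453 CPM in CNS2KO 399 and CNS2KO 408. In WT 398, 402, 405, 1032 and 1037, Ikzf1 had 528, 499.9, 483, 542 and 409 CPM. CNS2KO 399 lay below every WT library, whereas CNS2KO 408 lay inside their range, next above WT 1037. The means of Ikzf1 were 389 ± 90.7 CPM in CNS2KO and 492 ± 52.1 CPM in WT, with a log2 fold change of -0.34 (SE 0.180). Without CNS2KO 399 the log2 fold change of Ikzf1 was -0.12, and without CNS2KO 408 it was -0.61.

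Helios had 772 and 1139.8 CPM in CNS2KO 399 and CNS2KO 408, against 1020.5, 919.8, 945, 985 and 908 CPM in WT 398, 402, 405, 1032 and 1037. The CNS2KO libraries lay on either side of the WT range, CNS2KO 399 below it and CNS2KO 408 above it. Their means were therefore close, at 956 ± 260 CPM in CNS2KO and 956 ± 46.7 CPM in WT, and the log2 fold change of Ikzf2 was 0.00 (SE 0.163). The sign followed the library: 0.26 without CNS2KO 399 and -0.32 without CNS2KO 408.

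Eos had 152 and 151 CPM in CNS2KO 399 and CNS2KO 408, against 212, 159, 172, 209 and 146 CPM in WT 398, 402, 405, 1032 and 1037. Each CNS2KO value fell between WT 1037 and WT 402, the lowest WT libraries. The log2 fold change of Ikzf4 was -0.24 (SE 0.195), and it was the member least affected by the choice of CNS2KO library, with -0.24 without CNS2KO 399 and -0.25 without CNS2KO 408.

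Pegasus, whose second finger is the least like those of the other members above, had 42.4 and 65.0 CPM in CNS2KO 399 and CNS2KO 408. In WT 398, 402, 405, 1032 and 1037, Ikzf5 had 67.1, 42.3, 58.2, 64.4 and 62.8 CPM. The groups overlapped, with CNS2KO 399 close to WT 402, the lowest library. The log2 fold change of Ikzf5 was -0.13 (SE 0.252), 0.14 without CNS2KO 399 and -0.48 without CNS2KO 408.

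**Figure D3:**
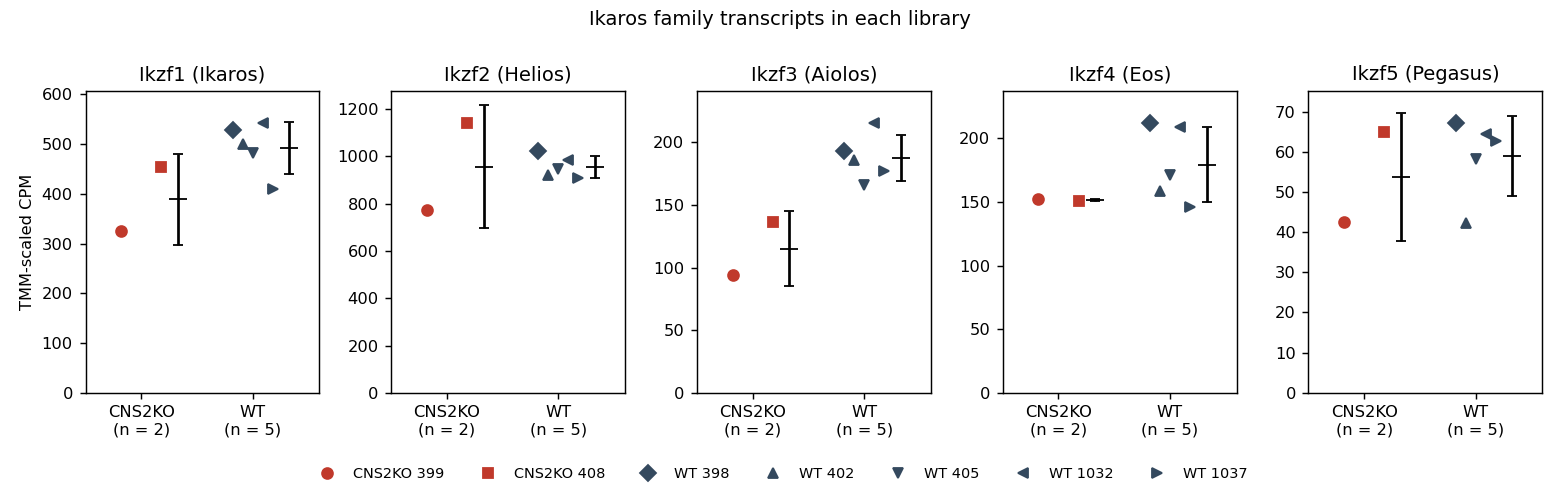
TMM-scaled CPM of each family member in every library, on linear axes that start at 0. Red symbols are the CNS2KO libraries and dark symbols the WT libraries, with the mean and SD of each group as a bar to the right. Both CNS2KO symbols lie below the WT symbols for Ikzf3 only, and for Ikzf2 they lie on either side of them.

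**Figure D4:**
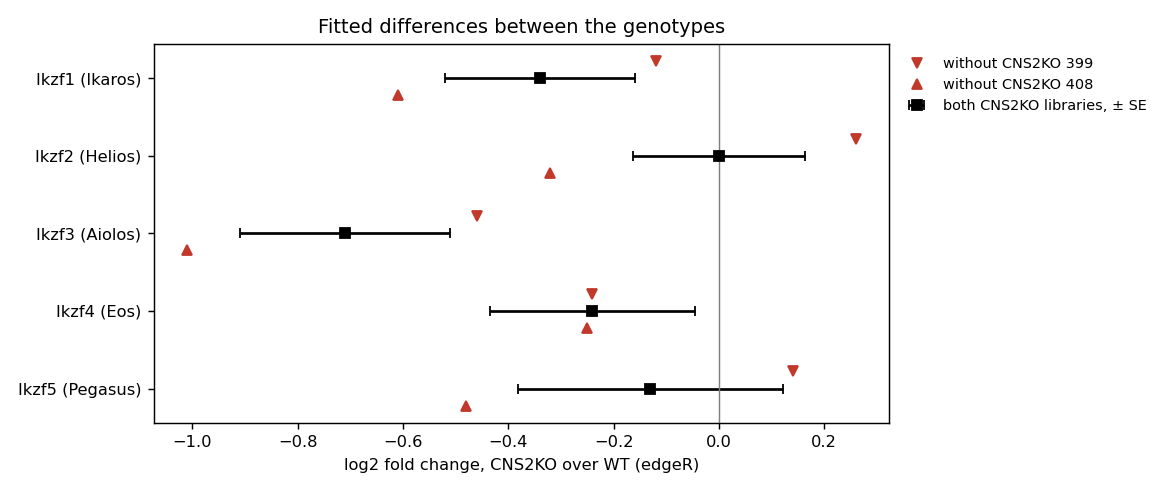
Fitted log2 fold change of each member, CNS2KO over WT, with its SE (black squares and bars), and the value when CNS2KO 399 or CNS2KO 408 was left out (red triangles). Ikzf3 lies at -0.71 with both CNS2KO libraries, and Ikzf2 and Ikzf5 change sign with the CNS2KO library left out.

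The summed level of the family overlapped between the genotypes. The 5 members together had 1385 and 1945 CPM in CNS2KO 399 and CNS2KO 408, against 1703 to 2021 CPM in WT libraries. Of these reads, Ikzf3 made up 6.79% and 7.01% in CNS2KO libraries and 9.12 to 10.7% in WT libraries. Ikzf2 made up 55.8% and 58.6% in CNS2KO libraries and 48.9 to 53.3% in WT libraries. Ikzf1 made up 23.4% and 23.3% in CNS2KO libraries and 24.0 to 27.7% in WT libraries. Ikzf4 made up 11.0% and 7.76% in CNS2KO libraries and 8.57 to 10.5% in WT libraries. Ikzf5 made up 3.06% and 3.34% in CNS2KO libraries and 2.34 to 3.69% in WT libraries. A higher share of 1 member lowers those of the others. These shares come from the same counts as the fold changes and are no separate evidence.

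CNS2KO 399 had the lowest level of Ikzf1, Ikzf2 and Ikzf3 among all 7 libraries. That library also held the most red blood cell RNA: the erythroid markers, of which 5 of 8 listed were tested, summed to 156 and 31.2 CPM in CNS2KO 399 and CNS2KO 408 and to 6.84 to 27.6 CPM in WT libraries. The globin Hbb-b1 made up 78.4 CPM of this in CNS2KO 399 and Hba-a1 28.9 CPM. Hba-a2, picked out after its values were seen, was higher in both CNS2KO libraries than in every WT library, at 9.79 and 3.25 CPM against at most 3.16 CPM. Across all tested genes, 3.76% were separated in this direction. Over all genes tested in each fit, the median log2 fold change was -0.125 without CNS2KO 408 and -0.04 without CNS2KO 399. With both CNS2KO libraries it was -0.026. The part of the erythroid markers, or of this wider difference between the CNS2KO libraries, in the members' values was not tested.

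B cells express Ikaros and Aiolos strongly, so their markers were read beside the members. Of 8 B cell markers 7 were tested, and they summed to 1156 and 981 CPM in CNS2KO 399 and CNS2KO 408 and to 1064 to 1363 CPM in WT libraries. Most of this was the immunoglobulin transcript Ighm, at 1075 and 940.0 CPM in CNS2KO libraries and 1007 to 1309 CPM in WT libraries. Cd79b had 48.1 and 23.2 CPM in CNS2KO libraries and 21.9 to 30.2 CPM in WT libraries, while the kinase gene Blk, named for a value at 0, had 0 reads in CNS2KO 399 and at most 24 in any library. The groups overlapped in each of the 7 tested markers, and their part in the level of Ikzf3 was not tested.

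Markers of CD8 T and NK cells, 5 of 6 tested, summed to 55.5 and 55.3 CPM in CNS2KO libraries and to 51.3 to 71.0 CPM in WT libraries. Cd8b1 stood at 22.5 ± 2.38 CPM in CNS2KO and 32.6 ± 6.36 CPM in WT, and the perforin gene Prf1 at 21 ± 5.97 CPM in CNS2KO and 17.3 ± 5.09 CPM in WT (SD, n = 2 and 5). Named for values at 0, the NK receptor gene Ncr1 had 0 reads in every library, and Klrb1c had 0 in CNS2KO 399 and in WT 402, WT 1032 and WT 1037.

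Myeloid markers, 5 of 7 tested, summed to 80.2 and 96.2 CPM in CNS2KO libraries and to 65.3 to 90.3 CPM in WT libraries. Cst3 stood at 63.5 ± 11.0 CPM in CNS2KO and 57.2 ± 9.56 CPM in WT, and Csf1r at 7.50 ± 1.51 CPM in CNS2KO and 9.39 ± 3.50 CPM in WT. The lysozyme gene Lyz2, picked out after its values were seen, was higher in both CNS2KO libraries, at 16.7 and 10.1 CPM, than in every WT library, at no more than 9.27 CPM. Across all tested genes, 3.76% were separated in this direction. The 4 markers of plasmacytoid dendritic cells summed to 48.8 and 64.0 CPM in CNS2KO libraries and to 30.2 to 64.5 CPM in WT libraries, and Siglech, named for values at 0, had 0 reads in CNS2KO 399 and WT 405. Bst2 stood at 36.8 ± 20 CPM in CNS2KO and 31.2 ± 12.7 CPM in WT, and Tcf4 at 13.7 ± 8.16 CPM in CNS2KO and 8.71 ± 2.69 CPM in WT. The part of these cells in the members' values was not tested.

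Members were also compared across the 7 libraries. Of the 10 pairs, 0 passed an exact permutation test of Pearson's r or Spearman's rho of log2 CPM after adjustment over the pairs. The highest r was that of Ikzf1 and Ikzf3, at 0.89 (exact permutation p = 0.0329, adjusted p = 0.165), with a Spearman's rho of 0.89 (exact permutation p = 0.0123, adjusted p = 0.123). Without the libraries farthest in Ikzf1, CNS2KO 399 and WT 1037, this r was 0.98, and over the WT libraries alone it was 0.66. The same omission moved the r of Ikzf1 with Ikzf2 from 0.69 to -0.46 and with Ikzf5 from 0.5 to 0.09. With Ikzf4 it rose from 0.71 to 0.89. Over the WT libraries alone, the r of Ikzf1 was 0.77 with Ikzf2, 0.86 with Ikzf4 and 0.01 with Ikzf5. The highest r over the WT libraries was that of Ikzf2 and Ikzf4, at 0.97, against 0.3 over all 7 libraries. The values over the WT libraries alone were not tested.

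The genes whose pattern over the 7 libraries was most like each member's, among 7503 genes of at least 10 CPM, are named by Pearson's r as a description. They were chosen over these same libraries, so a like difference between genotypes comes with the choice and is no separate evidence. Those most like Ikzf3 included Nipbl (0.988), a loader of cohesin, and the kinase gene Mknk1 (0.973). Nipbl stood at 314 ± 38.2 CPM in CNS2KO and 381 ± 20.9 CPM in WT, a log2 fold change of -0.28 (SE 0.153), which is smaller in size than that of Ikzf3. Most like Ikzf1 were Tnrc6b (0.987), a partner of Argonaute proteins, the sorting receptor gene Sorl1 (0.985) and Zfyve20 (0.983). Most like Ikzf2 were Zfp187 (0.986), the interferon-induced Oas3 (0.982) and Arap2 (0.979). Oas3 had 12.5 and 78.2 CPM in CNS2KO 399 and CNS2KO 408, against 27.3 to 41.2 CPM in WT libraries. Its CNS2KO values lay on either side of the WT range, the pattern of Ikzf2 by which it was chosen. Most like Ikzf4 were Scaf11 (0.985), Dock8 (0.969) and the corepressor gene Bcor (0.968), and most like Ikzf5 were the cytokine receptor kinase gene Jak3 (0.986), Dgcr8 (0.981) and the kinase gene Pak2 (0.980).

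Genes that act with the family were read from lists of partners, regulators and reported targets. In the 6 lists, edgeR's quasi-likelihood test called 0 members in either direction, against 0% of all genes tested, and the median log2 fold change of all genes was -0.03.

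Of the NuRD corepressor complex, the chromatin remodeller and deacetylase complex that Ikaros recruits, all 13 listed genes were tested. The fold change was above 0 in 5 and below 0 in 8, with a median of -0.12. That median was -0.03 without CNS2KO 399, -0.22 without CNS2KO 408, -0.07 without WT 405 and -0.06 without WT 1037. The deacetylase gene Hdac1 stood at 384 ± 57.9 CPM in CNS2KO and 328 ± 46.4 CPM in WT, and the histone-binding Rbbp4 at 509 ± 13.7 CPM in CNS2KO and 533 ± 95.6 CPM in WT. In 2 of the 13 the CNS2KO values lay under all WT values, against 3.0% of all genes. These, picked out after their values were seen, were the helicase gene Chd4, at 198 ± 1.13 CPM in CNS2KO and 246 ± 33.9 CPM in WT, and Gatad2a, at 35.6 ± 3.87 CPM in CNS2KO and 46.2 ± 5.30 CPM in WT.

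The Sin3 and CtBP corepressors had a median of 0.11 over 7 genes, 4 above 0 and 3 below. That median was -0.04 without CNS2KO 399, 0.19 without CNS2KO 408 and 0.03 without WT 1032. Sin3a stood at 136 ± 4.73 CPM in CNS2KO and 145 ± 37.1 CPM in WT, and Sin3b at 86.9 ± 15.3 CPM in CNS2KO and 78.1 ± 5.59 CPM in WT. Ctbp1, known as a partner of Eos and named for that role, stood at 15.9 ± 1.71 CPM in CNS2KO and 14.7 ± 4.48 CPM in WT. Ctbp2, picked out after its values were seen, was the 1 gene of this list whose CNS2KO values lay under all WT values, against 3.0% of all genes. It had 1.65 and 3.11 CPM in CNS2KO libraries, against a WT minimum of 3.33 CPM.

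The enzymes acting on Ikaros proteins are the subunits of the cereblon ubiquitin ligase, which degrades Ikaros and Aiolos when human cells are given thalidomide analogs, casein kinase 2 and the catalytic subunits of protein phosphatase 1. Their median was -0.15 over 11 genes, 5 above 0 and 6 below. Crbn, the cereblon gene, stood at 339 ± 51.2 CPM in CNS2KO and 281 ± 41.1 CPM in WT, and Ppp1ca at 757 ± 196 CPM in CNS2KO and 711 ± 74.1 CPM in WT. Their median was 0.12 without CNS2KO 399, -0.26 without CNS2KO 408, 0.03 without WT 398, -0.04 without WT 1032 and -0.07 without WT 1037.

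The partner and lineage transcription factors, which include Foxp3, Runx, Stat and Foxo genes, had a median of -0.08 over 16 genes, 6 above 0 and 10 below, with -0.27 without CNS2KO 408, -0.02 without WT 398 and -0.12 without WT 1037. Ets1, a T cell factor that binds CNS2, stood at 2560 ± 651 CPM in CNS2KO and 2532 ± 278 CPM in WT. Foxp1, a factor of resting T cells, stood at 496 ± 26.8 CPM in CNS2KO and 594 ± 52.2 CPM in WT. Foxp1 was 1 of 3 genes of the list whose CNS2KO values lay under all WT values, against 3.0% of all genes. The others, picked out after their values were seen, were Foxo1, at 248 ± 9.19 CPM in CNS2KO and 295 ± 32.3 CPM in WT, and the naive T cell factor Tcf7, at 255 ± 31.1 CPM in CNS2KO and 338 ± 40.9 CPM in WT.

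Of 17 genes bound or repressed by Ikaros proteins in lymphocytes, 13 were tested, 3 with a fold change above 0 and 10 below, and a median of -0.16, which was -0.03 without CNS2KO 399. Hes1, Notch3, Ptcra and Rag1 had at most 16 reads in any library and were not tested. Il2ra stood at 1791 ± 58.7 CPM in CNS2KO and 1831 ± 237 CPM in WT, and Cd4 at 570 ± 48.3 CPM in CNS2KO and 650.0 ± 87.4 CPM in WT. Il2, the cytokine gene that Aiolos and Eos are known to silence, was picked out for that role. It had at most 37 reads in any library and stood at 1.59 ± 0.249 CPM in CNS2KO and 0.891 ± 0.621 CPM in WT, a log2 fold change of 0.84 (SE 1.15) that is smaller than its own error.

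Of the regulatory T cell surface genes, 11 of 12 listed symbols were in the table and tested, 5 with a fold change above 0 and 6 below, and a median of 0.00, which was -0.06 without CNS2KO 399 and 0.05 without WT 1032. Gpr83 stood at 845 ± 117 CPM in CNS2KO and 822 ± 109 CPM in WT, and the interleukin receptor chain gene Il2rb at 1061 ± 136 CPM in CNS2KO and 922 ± 161 CPM in WT. Nrp1, which like Helios marks thymus-derived cells and was named for that role, stood at 599 ± 92.5 CPM in CNS2KO and 611 ± 44.0 CPM in WT. Tigit, an inhibitory receptor gene picked out after its values were seen, was lower in both CNS2KO libraries, at 35.3 and 40.6 CPM, than in every WT library, at 40.9 to 124 CPM. Across all tested genes, 3.0% were separated in this direction.

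**Figure D5:**
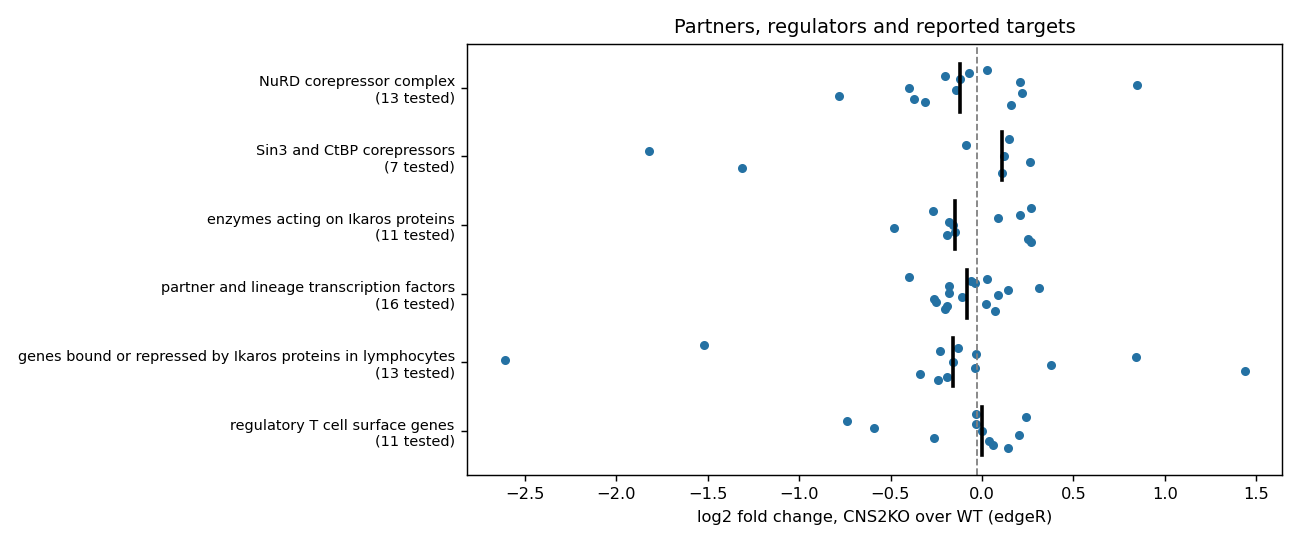
Fitted log2 fold change, CNS2KO over WT, of each tested gene in the 6 lists of partners, regulators and reported targets. Blue points are genes, black bars are list medians, and the dashed line is the median of all tested genes at -0.03. List medians lie between -0.16 and 0.11, and Il10, picked out for its place in the plot, with at most 108 reads in any library, lies farthest below 0 at -2.61.

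The authors' deposited log2 values gave the members like differences. Averaged over libraries, Ikzf3 had a log2 value of 4.78 in CNS2KO and 5.50 in WT, a difference of -0.72, and Ikzf1 had 6.54 in CNS2KO and 6.89 in WT, a difference of -0.35. For Ikzf2, Ikzf4 and Ikzf5 the differences were -0.02, -0.23 and -0.15. These values derive from the same reads and are no separate evidence. A further table holds 1 signed value per gene without naming its groups, direction or log base. In the authors' deposited table Ikzf3 had the value 0.471 and Ikzf5 0.423, with 85.7% and 84.3% of tested genes below them, while Ikzf1 had 0.119, Ikzf2 0.04 and Ikzf4 -0.101.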

How the data were processed

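Total RNA of the sorted cells went through SMARTer amplification and an Ion Proton library preparation, per the labels' protocols. STAR, BWA, edgeR and mm9 are named in the submitters' processing notes, without versions. The authors deposited whole-number read counts for each gene symbol, log2 values whose scaling the sources used here do not give, and a signed score per gene. Of 9 value columns per table, 2 share the number 407, which fits both genotypes, and were not used. The columns of WT 1032 and WT 1037 have names that begin with R, and those of all other used libraries begin with YI. No used CNS2KO column has a name with R, and the labels give no batch. What the names stand for is therefore unknown, and fits without this pair or with a term for it are given below. The 5 summary rows of the read counter were left out, and reads on genes were 22.0 to 23.7% of each column.

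Counts were fitted in R 4.3.3 with edgeR 4.0.16: filterByExpr, TMM scaling and the two-sided quasi-likelihood test, adjusted by Benjamini-Hochberg over all genes tested. The SE of a log2 fold change is its size divided by the root of the F statistic. DESeq2 1.42.0 and limma-voom (limma 3.58.1) were alternatives. The fit was tested on simulated data with 200 changed genes. Lengths are the exons of GENCODE M21 transcripts matched to RefSeq, and log2 CPM uses a prior count of 2. Coordinates are not given, since that annotation uses GRCm38. The members and lists were chosen with earlier results of these data known. The text names the members, the 2 most expressed genes of each list (no list gene passed the test), and the 3 genes most like each member, leaving out predicted and clone names; 1 gene that the rule names and some finger sequences are not reported here. Genes named for other reasons are marked as such.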

Additional observations from a re-analysis of the deposited data

Results flagged for a closer look

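In checks of the 5 WT values of 56 genes and sums, 2 had a library that stood apart, both times WT 1037 on the high side. About 1 in 20 such checks does so by chance. Ighm stood at 1309 CPM in WT 1037, against 1056 CPM in the next WT library. The B cell marker sum, most of which is Ighm, stood at 1363 CPM in WT 1037, against 1113 CPM in the next. Ikzf1 (409 CPM), Ikzf2 (908 CPM), Ikzf4 (146 CPM) and the family sum (1703 CPM) were lowest in WT 1037 among the WT libraries.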

How the results depend on the processing

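The log2 fold changes of all 5 members moved by less than the SD of the WT libraries under RLE scaling, without the filter on low counts, with DESeq2 or limma-voom, without WT 1032 and WT 1037 or with a term for that pair, and when limma was run on the deposited log2 values, which was added after seeing the data. With 1 library left out in turn, they ranged from -0.61 to -0.12 for Ikzf1, -0.32 to 0.26 for Ikzf2, -1.01 to -0.46 for Ikzf3 and -0.48 to 0.14 for Ikzf5. Each extreme came from a fit with 1 CNS2KO library, which is then assumed to vary like WT. The median of the enzymes ranged from -0.26 to 0.12 and that of the partner factors from -0.27 to -0.02. Without WT 1032 and WT 1037, the medians were -0.08 for NuRD, 0.05 for Sin3 and CtBP, -0.05 for the enzymes, -0.16 for the partner factors and -0.24 for the reported targets. The number of genes called was 0 under all settings except without the filter, where it was 8, of which 0 were members. Of the 10 pairs of members, 9 or 10 differed in level under every setting tried. No paired analysis was possible because the genotypes share only the number 407, whose columns were not used.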
